A study of Mus musculus with 4 samples.

Results

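The integrated stress response is the programme by which cells lower general protein synthesis and raise the supply of amino acids when proteins, nutrients or mitochondria are disturbed. Kinases that sense stress phosphorylate the translation factor eIF2, and under that condition the mRNA of the transcription factor ATF4 is translated more, so that ATF4 protein, and not only Atf4 mRNA, sets the response. ATF4 binds near genes for serine, asparagine and proline synthesis, mitochondrial folate enzymes, amino acid transporters and tRNA synthetases, which the fast-dividing progenitors of the embryonic forebrain also use for growth. Described here are 39 genes of this programme out of the 48795 in the table, chosen by symbol as genes of the ATF4 pathway, of serine and one-carbon synthesis, of amino acid transport and of tRNA charging. All 39 symbols were found once, and 38 passed the filter on low counts. The exception was Cebpb, a basic leucine zipper partner of ATF4, which had 4 and 3 reads in the controls and 4 and 3 in the Ctcf-null libraries.

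The material was telencephalon, the embryonic forebrain, of C57BL/6 mouse embryos at embryonic day 14. The 2 control libraries came from embryos listed as Ctcf floxed, and the 2 Ctcf-null libraries from embryos with the floxed gene and NestinCre, a recombinase driven by Nestin sequences and active in neural progenitors. Cells of blood, vessels and microglia, which do not descend from those progenitors, are dissected with the tissue and are not targeted by this Cre. CTCF is a DNA-binding zinc finger protein that anchors chromatin loops, and the comparison asks which transcripts differ when its gene is lost. The libraries are numbered as 2 pairs of a control and a Ctcf-null sample, and the labels do not tie them to separate embryos. In fits that keep the pairs, p-values set the genotype difference against how far the pairs disagree about it, with spread shared over genes. That disagreement may be technical, and the p-values describe these libraries only.

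Depth was 25519331 to 43812558 reads per library, and the listed genes took 0.166% to 0.229% of them. Ctcf itself had 436.72 and 1133.21 normalized reads in the controls, and only 38.89 and 61.96 in the Ctcf-null libraries (log2 ratio -3.80, SE 0.15). Marker lists of neurons and of apical progenitors (the dividing cells along the ventricle) summed to 6620 to 8920 and 1270 to 2370 CPM (reads scaled to the library total), and no listed marker of any cell type was at 0 in all libraries. Values below are the authors' normalized read counts (reads divided by a size factor per library, not by gene length), always in the order control 1, control 2, Ctcf-null 1, Ctcf-null 2 unless named. Fold changes are log2 values of Ctcf-null over control from the quasi-likelihood test of edgeR, run on recovered whole reads with the pair as a block, with approximate standard errors (SE). "Rose" and "fell" refer to genes past a Benjamini-Hochberg adjusted p of 0.05 over the 22158 genes tested.

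Of the 38 tested genes 11 fell, 1 rose and 26 did not pass. The share that fell was 28.9%, against 7.13% of all tested genes, and the share that rose was 2.63%, against 4.8%. In either direction 31.6% of the listed genes passed, against 11.9% of all tested genes. The falls were small, between 1.17-fold and 1.66-fold, and none reached 2-fold. The median log2 fold change over the 38 genes was -0.21, against -0.02 over all tested genes, and it was -0.23 in the first pair and -0.14 in the second. In both pairs 27 of the 38 were lower (71.1%, against 34.4% of all tested genes) and 6 were higher (against 31.5%). These shares describe the list and carry no test, since the genes were chosen with earlier results of these libraries known. Among genes with a mean of at least 5 CPM, 5 of 31 listed genes fell (16.1%, against 5.3%). DESeq2 with the pair as a block also called 5 lower (against 2.45% of all tested genes), and limma with the block called 15 (against 10.1%). Without the block, 0 genes of the list passed in edgeR or limma, and 0 had an unadjusted p under 0.05 in either.

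**Figure D1:**
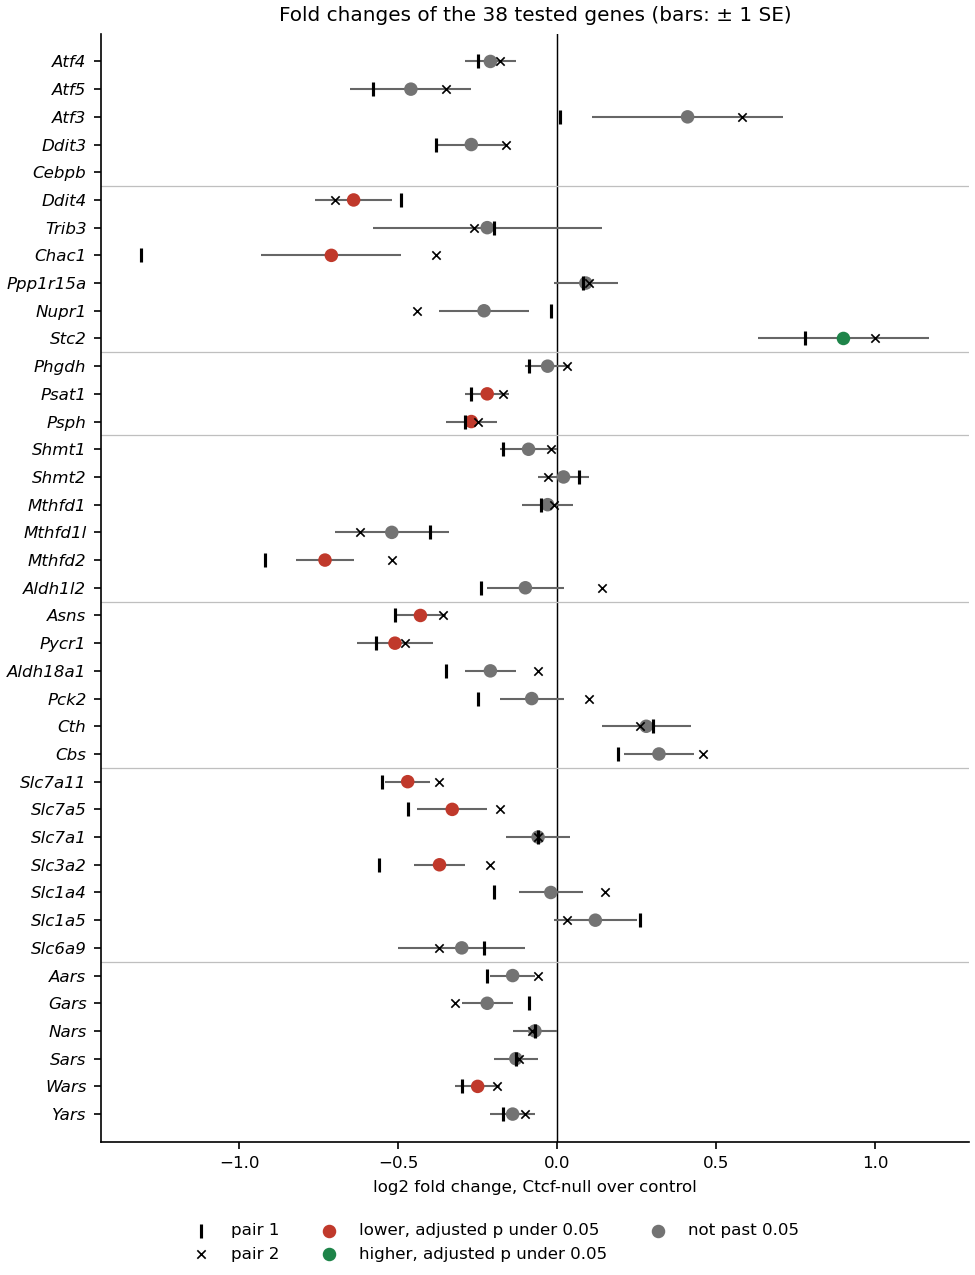
Log2 fold change of Ctcf-null over control for each tested gene (dot, with a bar of 1 SE on either side), grouped by role from transcription factors at the top to tRNA synthetases at the bottom, with the fold change of pair 1 (vertical tick) and pair 2 (cross). Red dots are the 11 genes that fell and the green dot is Stc2, and Cebpb has no dot because it was not tested.

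ATF4 binds DNA together with C/EBP proteins at a composite element, searched for here as TGATGNAAN. This motif of 9 bases was searched on both strands in the 250 bases before the transcription start in RefSeq promoter windows (GRCm38.p6, the same assembly as mm10). Windows were matched for 33 of the 39 genes, and the 6 others were Aldh1l2, Cth, Slc7a5, Slc1a5, Nars and Wars. The listed genes were chosen as genes of the ATF4 programme, so their share with the motif describes that choice and not these libraries. The motif was found upstream of 9 of the 33 genes (27.3%), against 1052 of 27025 genes in the table (3.89%). It was present in 4 of the 9 genes with a window that fell, in 5 of 22 that did not pass and not in Stc2. The stretches of the 4 genes that fell and hold the motif are shown, in the gene's own 5′ to 3′ direction with the element in capitals. They lie on mm10 at chr2:119351008-119351096 (plus strand, Chac1), chr6:7693214-7693242 (minus, Asns), chr11:120643803-120643891 (minus, Pycr1) and chr3:50443643-50443689 (minus, Slc7a11). In Slc7a11 the motif occurs once on each strand, and in Asns it lies inside an exon of GENCODE M21, 23 bases before the RefSeq start.
Chac1: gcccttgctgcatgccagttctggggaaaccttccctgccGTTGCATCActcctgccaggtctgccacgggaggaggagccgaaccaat
Asns: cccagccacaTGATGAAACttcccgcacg
Pycr1: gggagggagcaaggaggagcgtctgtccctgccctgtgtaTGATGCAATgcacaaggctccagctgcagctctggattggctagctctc
Slc7a11: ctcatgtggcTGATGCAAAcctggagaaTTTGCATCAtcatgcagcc

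Of the 5 genes with the motif that did not pass, Atf3, Nupr1, Pck2 and Gars are shown for comparison with 10 bases on either side. Their stretches are chr1:191183426-191183454 (minus strand, Atf3), chr7:126625563-126625591 (minus, Nupr1), chr14:55540152-55540180 (plus, Pck2) and chr6:55037960-55037988 (plus, Gars). The Nupr1 element also lies inside an exon of GENCODE M21. The element is thus present in genes of the list that fell and in genes that did not pass. A match shows only that these letters are in the window, and binding was not measured.
Atf3: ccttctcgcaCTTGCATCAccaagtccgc
Nupr1: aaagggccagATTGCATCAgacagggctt
Pck2: agccttcaaaGTTACATCAgtatcttaca
Gars: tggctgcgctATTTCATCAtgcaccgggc

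None of the 4 tested transcription factor genes passed in edgeR, and 3 had an unadjusted p under 0.05. Atf4, which encodes the main effector, was at 1058.44, 3644.79, 854.18 and 3119.83 normalized counts. Each Ctcf-null value was below its paired control, but the spread between pairs was larger and the groups overlapped (log2 fold change -0.21, SE 0.08, edgeR adjusted p = 0.072). Atf4 is a near call that depends on scaling and test. It passed with the authors' size factors, with RLE factors and in limma with the block, which used the authors' scaled values. It did not pass with upper-quartile factors, without a filter, with the filter at 5 CPM or in DESeq2 (DESeq2 adjusted p = 0.37). Atf5, a relative of ATF4 whose translation is also raised by eIF2 phosphorylation, was at 77.38, 143.84, 49.5 and 109.34 (-0.46, SE 0.19, edgeR adjusted p = 0.13). Ddit3, which encodes CHOP, a factor tied to death under lasting stress, was at 339.77, 589.12, 249.61 and 511.47 (-0.27, SE 0.11, edgeR adjusted p = 0.14). Atf3, a stress-induced repressor and activator of the same leucine zipper class, had only 14 and 39 reads in the controls and 17 and 58 in the Ctcf-null libraries, with pair values of 0.01 and 0.58.

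Among the stress effectors Ddit4 and Chac1 fell, Stc2 rose and 3 genes did not pass. Ddit4 (chromosome 10, 59949669 to 59951834, minus strand) encodes REDD1, which restrains the growth kinase complex mTORC1. It was at 88.05, 1041.9, 60.1 and 622.02 normalized counts. The second pair was far above the first, so the groups overlapped, while within each pair the Ctcf-null library was lower (log2 fold change -0.64, SE 0.12, edgeR adjusted p = 7.9e-04). Chac1 (chromosome 2, 119351229 to 119354381, plus strand) encodes an enzyme that breaks down glutathione. It was at 60.48, 171.36, 23.33 and 127.56. The lowest value was that of Ctcf-null 1, and the pairs differed in size, at -1.31 and -0.38 (fitted -0.71, SE 0.22, edgeR adjusted p = 0.032). It did not pass with upper-quartile factors or in DESeq2, and under the filter at 5 CPM it was not tested.

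Stc2 (chromosome 11, 31357307 to 31370074, minus strand), which encodes the secreted glycoprotein stanniocalcin 2, was the only listed gene that rose. Its counts were low, 23.13 and 37.52 in the controls and 38.18 and 72.89 in the Ctcf-null libraries, from 26, 30, 54 and 60 reads. The Ctcf-null values were both above the controls, although Ctcf-null 1 and control 2 were nearly equal (log2 fold change 0.90, SE 0.27, edgeR adjusted p = 0.026). It was not called by DESeq2 with the block, and under the filter at 5 CPM it was not tested. The remaining effectors gave no call. Ppp1r15a encodes GADD34, which directs a phosphatase to eIF2 and so ends the response, and was at 283.73, 861.79, 287.09 and 890.51 (0.09, SE 0.10). Nupr1, a small stress-induced nuclear protein gene, was at 175.22, 306.44, 166.17 and 218.68 (-0.23, SE 0.14). Trib3, which encodes a pseudokinase that restrains ATF4 and AKT, had 15 to 21 reads in each library (-0.22, SE 0.36), and its SE was the largest of the list.

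**Figure D2:**
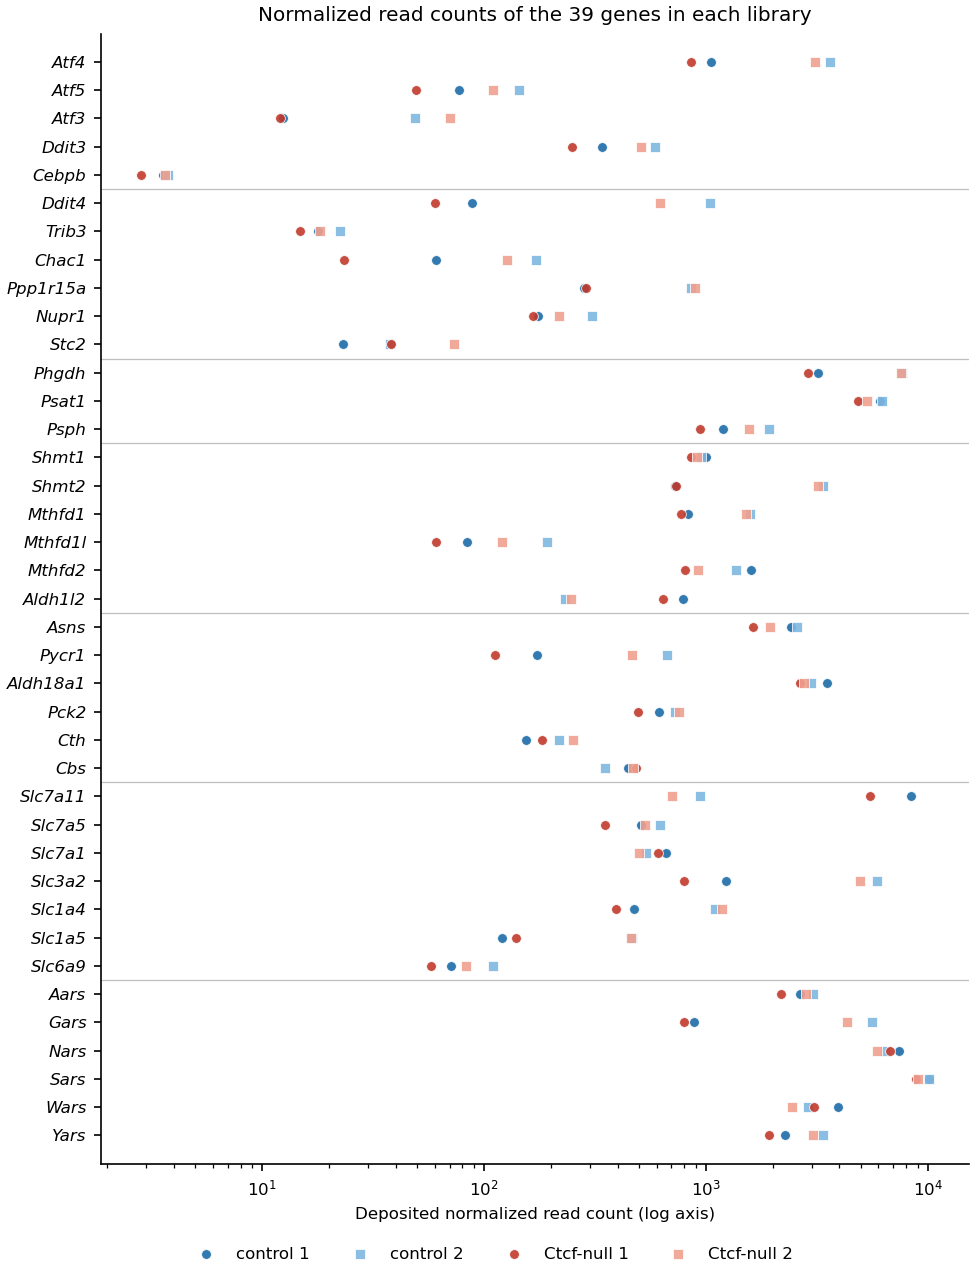
Deposited normalized read count of each of the 39 genes in each library, on a log axis, with circles for pair 1, squares for pair 2, blue for controls and red for Ctcf-null. For Ddit4, Slc7a11, Gars and Slc3a2 the distance between circles and squares is much larger than that between blue and red.

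The serine pathway makes serine from a glycolytic intermediate in 3 steps, and the genes of its last steps, Psat1 and Psph, fell. Psat1 (chromosome 19, 15904678 to 15947337, minus strand), the aminotransferase, was at 6122.92 and 6193.89 in the controls and 4855.0 and 5312.7 in the Ctcf-null libraries. The controls agreed closely and both Ctcf-null values lay below them (log2 fold change -0.22, SE 0.07, edgeR adjusted p = 0.030). Psph (chromosome 5, 129765558 to 129787449, minus strand), the phosphatase that releases serine, was at 1196.3, 1927.46, 939.74 and 1564.77. Its groups overlapped, with nearly equal pair values of -0.29 and -0.25 (fitted -0.27, SE 0.08, edgeR adjusted p = 0.027). Phgdh, the first and committed enzyme, was at 3201.1, 7681.08, 2888.53 and 7568.74 and did not pass (-0.03, SE 0.07, edgeR adjusted p = 0.85). The difference between Phgdh and its partners was not tested. Neither Psat1 nor Psph passed with upper-quartile factors, with the filter at 5 CPM or in DESeq2.

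In one-carbon metabolism, which moves single carbon units from serine onto folate for purine and thymidine synthesis, only Mthfd2 of 6 genes passed. Mthfd2 (chromosome 6, 83305691 to 83325908, minus strand) encodes the mitochondrial methylenetetrahydrofolate dehydrogenase of dividing cells. It was at 1593.88 and 1367.11 in the controls and 804.69 and 922.1 in the Ctcf-null libraries. The groups did not overlap, and its fall had the smallest p of the list (log2 fold change -0.73, SE 0.09, edgeR adjusted p = 3.2e-06), with pair values of -0.92 and -0.52. Mthfd1l, which acts at the next mitochondrial step, was at 83.61, 191.37, 60.81 and 120.27 (-0.52, SE 0.18, edgeR adjusted p = 0.057). It passed with the authors' size factors, with RLE factors, without a filter and in limma with the block.

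The other folate enzymes of the list lay near 0. Shmt2, the mitochondrial enzyme that splits serine, was at 728.45, 3362.11, 731.86 and 3190.29 (0.02, SE 0.08), and the cytosolic Shmt1 was at 1005.07, 953.1, 858.43 and 911.16 (-0.09, SE 0.09). The sign of Shmt2 changed with the scaling. Mthfd1, the cytosolic trifunctional enzyme, had -0.03 (SE 0.08). Aldh1l2, which oxidises formyl folate in mitochondria, went from 791.6 and 232.65 to 642.05 and 247.84, with pair values of opposite sign (-0.24 and 0.14).

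Of the enzymes for asparagine, proline, phosphoenolpyruvate and transsulfuration, Asns and Pycr1 fell. Asns (chromosome 6, 7675169 to 7693254, minus strand), asparagine synthetase and a common reporter of ATF4 activity, was at 2427.29 and 2587.88 in the controls and 1638.37 and 1954.75 in the Ctcf-null libraries. Both Ctcf-null values lay below both controls (log2 fold change -0.43, SE 0.08, edgeR adjusted p = 2.2e-04). Pycr1 (chromosome 11, 120635712 to 120643769, minus strand), which completes proline synthesis in mitochondria, was at 172.55, 670.42, 111.72 and 465.3. The groups overlapped across pairs, and the pair values were close, at -0.57 and -0.48 (fitted -0.51, SE 0.12, edgeR adjusted p = 0.0046). It did not pass in DESeq2.

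Aldh18a1, the enzyme that starts proline synthesis, was at 3534.64, 2993.13, 2665.79 and 2777.23. Its groups did not overlap on these counts. With the TMM factors of the main fit they did, at 21.1 in Ctcf-null 1 and 20.8 in control 2 per kilobase of exon. Aldh18a1 did not pass (-0.21, SE 0.08, edgeR adjusted p = 0.080). It passed with the authors' size factors and in limma with the block. Pck2, mitochondrial phosphoenolpyruvate carboxykinase, had pair values of -0.25 and 0.10. The transsulfuration genes, which make cysteine from homocysteine, had values above 0 in both pairs, as did Atf3, Ppp1r15a, Stc2 and Slc1a5. Cbs was at 443.83, 351.47, 485.78 and 468.95 (0.32, SE 0.11, edgeR adjusted p = 0.067) and Cth at 154.76, 218.89, 183.14 and 252.7 (0.28, SE 0.14, edgeR adjusted p = 0.21). Cbs passed with upper-quartile factors.

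Of the 7 amino acid transporter genes, 3 fell, and these 3 form the paired heavy and light chains of 1 transporter family. Slc3a2 (chromosome 19, 8706882 to 8723369, minus strand) encodes the heavy chain that brings its partners to the membrane. It was at 1230.99, 5931.23, 800.44 and 4954.3 (log2 change -0.37, SE 0.08, edgeR adjusted p = 0.0020) and did not pass with the filter at 5 CPM. Slc7a11 (chromosome 3, 49892526 to 50443614, minus strand) encodes the light chain that imports cystine for glutathione. It was at 8406.12, 936.84, 5518.26 and 702.2 (-0.47, SE 0.07, edgeR adjusted p = 6.4e-05). These 2 genes differed between pairs in opposite directions, Slc3a2 higher and Slc7a11 lower in the second pair, while both were lower in the Ctcf-null library of each pair. Slc7a5 (chromosome 8, 121881150 to 121907694, minus strand), the light chain for large neutral amino acids, was at 509.65, 622.89, 351.43 and 530.91 (-0.33, SE 0.11, edgeR adjusted p = 0.046). It lost its call with upper-quartile factors, without a filter, with the stricter filter and in DESeq2.

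The other 4 transporter genes did not pass. Slc7a1, a carrier of arginine and lysine, was at 660.86, 536.59, 605.99 and 498.1, with -0.06 in either pair. Slc1a4, a carrier of serine and alanine, had pair values of -0.20 and 0.15. Slc1a5, the glutamine carrier, was at 120.96, 465.29, 139.3 and 458.01 (0.12, SE 0.13). Slc6a9, the glycine transporter GlyT1, was at 71.16, 110.07, 57.98 and 82.61 (-0.30, SE 0.20, edgeR adjusted p = 0.39).

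The 6 cytosolic tRNA synthetase genes, which load amino acids onto tRNAs, were lower in both pairs, by small amounts, and 1 of them passed. Wars (chromosome 12, 108860030 to 108894174, minus strand), for tryptophan, was at 3945.56, 2875.56, 3073.79 and 2439.49 (log2 change -0.25, SE 0.07, edgeR adjusted p = 0.022), and it lost its call with upper-quartile factors, with the filter at 5 CPM and in DESeq2. Its groups overlapped, and the first pair was the higher one. Gars, for glycine, was at 888.55, 5593.51, 800.44 and 4328.64 (-0.22, SE 0.08, edgeR adjusted p = 0.068), and it passed with the authors' size factors, with RLE factors and in limma with the block. Sars, for serine, was at 10118.29, 10171.39, 8838.13 and 9077.63, with both Ctcf-null values below both controls (-0.13, SE 0.07, edgeR adjusted p = 0.25). Aars had -0.14, Yars -0.14 and Nars -0.07, each with an SE of 0.07.

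Across the list, both Ctcf-null values lay below both controls for 6 of 38 genes (15.8%, against 7.64% of all tested genes) and above them for 2 (5.26%, against 6.45%). The 6 were Psat1, Shmt1, Mthfd2, Asns, Aldh18a1 and Sars, and the 2 were Stc2 and Cbs. The groups overlapped for the other 30 genes. These comparisons used the authors' normalized counts, and some depend on that scaling. With the TMM factors of the main fit, per kilobase of exon, Shmt1 and Aldh18a1 overlapped. Ctcf-null 1 was then at 7.13 and 21.1, above control 2 at 6.95 and 20.8. Cbs was then at 1.83 in both control 1 and Ctcf-null 2. Of the 12 calls, those of Mthfd2, Ddit4, Slc7a11 and Asns were made in all 8 alternatives that kept the block.

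**Figure D3:**
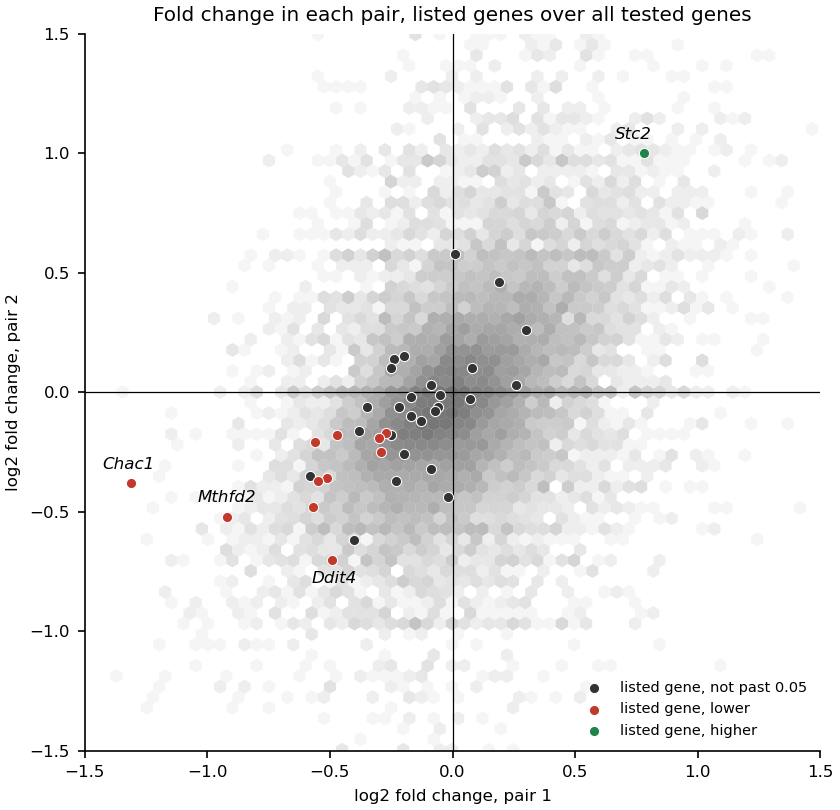
Log2 fold change in pair 1 (horizontal axis) and pair 2 (vertical axis) for the listed genes (dots) over the density of all tested genes (grey hexagons, darker for more genes, log scale), for values within 1.5 of 0. All 11 red dots lie in the lower left quadrant and Stc2 in the upper right, and Chac1 lies farthest to the left.

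Levels per gene length show which members were abundant. RPKM here is CPM divided by the TMM factor of the library, per kilobase of exon, with exon lengths from GENCODE M21. In RPKM, Phgdh averaged 63.6 in the controls, Sars 58.4, Nars 47.4 and Psat1 42.8. At the other end Stc2 averaged 0.172, Trib3 0.279 and Atf3 0.410. The first place of Phgdh comes from control 2, at 87.4 RPKM, while in control 1 it was at 39.8, below Sars at 60.8, Nars at 52.8 and Psat1 at 44.5. The order between neighbours such as Slc3a2, Wars and Gars (29.2, 29.5 and 29.8) does not hold beyond the spread, since Gars alone ranged from 8.80 to 50.8 RPKM between the controls.

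The difference between the pairs was larger than that between genotypes for most of the list. Its median absolute size was 0.64 on the log2 scale, against 0.22 between genotypes (0.85 and 0.19 over all tested genes), and it exceeded the genotype difference in 31 of 38 genes (against 84.6% of all tested genes). The libraries of the pairs also differed in make-up, with 26.0% and 21.9% of reads from the 10 most abundant genes in the first pair and 8.82% and 8.37% in the second. In the second pair 27 of the 38 were higher, against 48.5% of all tested genes. The extremes were Ddit4 at 3.34, Gars at 2.41 and Slc3a2 at 2.31 above the first pair, and Slc7a11 at -3.21 and Aldh1l2 at -1.70. The pair difference rose with the GC content of the longest transcript, with Spearman's rho of 0.49 over the 38 genes and 0.35 over 22020 tested genes. Genes share libraries and are not independent, so rho is given as a description. With transcript length, rho of the pair difference was -0.49 over the list and -0.03 over all tested genes. For the genotype fold change, rho with GC content was -0.11 over the list and -0.17 over all tested genes, and with transcript length it was 0.20 and 0.16. The part of GC content and length in the falls was not tested.

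**Figure D4:**
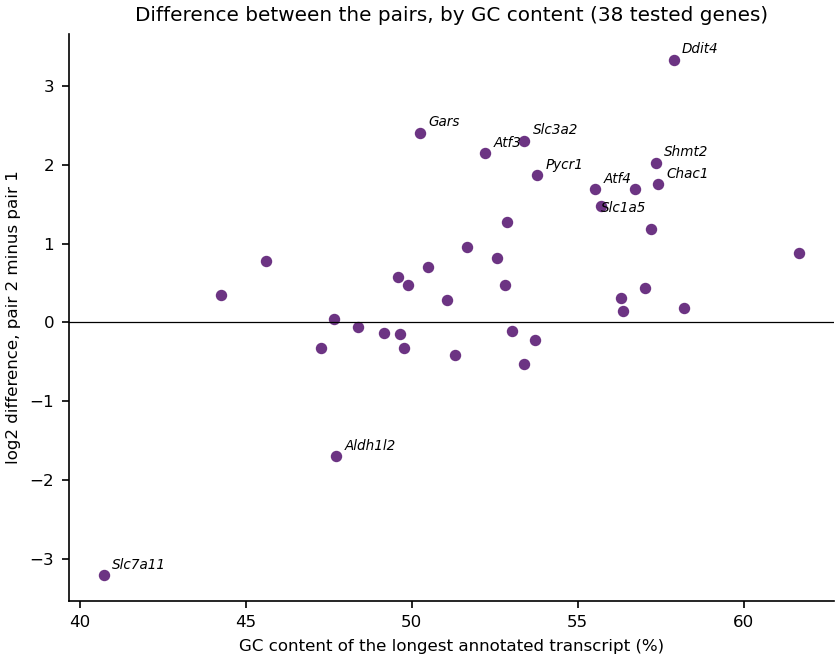
Log2 difference of pair 2 minus pair 1 (vertical axis) against the GC content of the longest annotated transcript in percent (horizontal axis) for the 38 tested genes. Slc7a11, at 40.71% GC, is the lowest point, and Ddit4, at 57.89%, is the highest.

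Of 108 further pathway genes in 7 lists, 107 were tested, 8 fell and 5 rose, with a median of -0.06 and a range from -0.99 to 1.08. Set against 7.13% lower and 4.8% higher among all tested genes, these counts of calls are near the background. Without a test, 54 of the 107 were lower in both pairs and 24 were higher, against 34.4% and 31.5% of all tested genes. The upstream machinery, the eIF2 kinases, eIF2 and its exchange factor eIF2B, gave 0 calls in 15 genes in edgeR (2 with an unadjusted p under 0.05), and values lay between -0.36 and 0.19. Of 14 tested genes among other ATF4-induced genes 2 fell and 0 rose. Cebpg, a leucine zipper partner of ATF4, had 577.25 and 841.78 normalized counts in the controls against 461.74 and 530.91 (log2 change -0.43, SE 0.11), and Map1lc3b, an autophagy gene, fell by 0.28 on the log2 scale (SE 0.07). In edgeR 0 of 14 other cytosolic tRNA synthetase genes passed (2 with an unadjusted p under 0.05), with a median of -0.09 against -0.14 for the 6 in the list. Of 8 genes for mitochondrial chaperones and proteases 0 passed (3 with an unadjusted p under 0.05).

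The mitochondrial tRNA synthetases, the folate genes and the unfolded protein response genes went both ways. Of 17 mitochondrial synthetase genes Sars2 (0.66, SE 0.12) and Wars2 (0.39, SE 0.12) rose, while Yars2 (-0.99, SE 0.20) and Aars2 (-0.88, SE 0.19) fell. Their pair values were unequal, at -0.24 and -1.51 for Yars2 and -1.80 and -0.72 for Aars2. Of 20 other folate and glycine genes 2 rose and 2 fell. Aldh1l1, the cytosolic relative of Aldh1l2 and a gene of the glial lineage, had 705.33 and 760.48 normalized counts in the controls against 1448.86 and 1538.05 (log2 change 1.08, SE 0.09, edgeR adjusted p = 8.0e-10), and its groups did not overlap. Mtr, methionine synthase, rose by 0.51 (SE 0.15), with pair values of 0.24 and 1.00. Gcsh, the carrier protein of glycine cleavage, went from 1791.34 and 4052.55 to 1191.47 and 2882.92 (-0.48, SE 0.07), and Mthfd2l, the sister enzyme of Mthfd2, fell with pair values of -0.02 and -1.24. Of 19 genes of the unfolded protein response, the endoplasmic reticulum programme that shares the kinase PERK with the stress response, Xbp1 (-0.38, SE 0.09) and Sdf2l1 (-0.53, SE 0.11) fell and Sel1l (0.33, SE 0.08) rose.

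**Figure D5:**
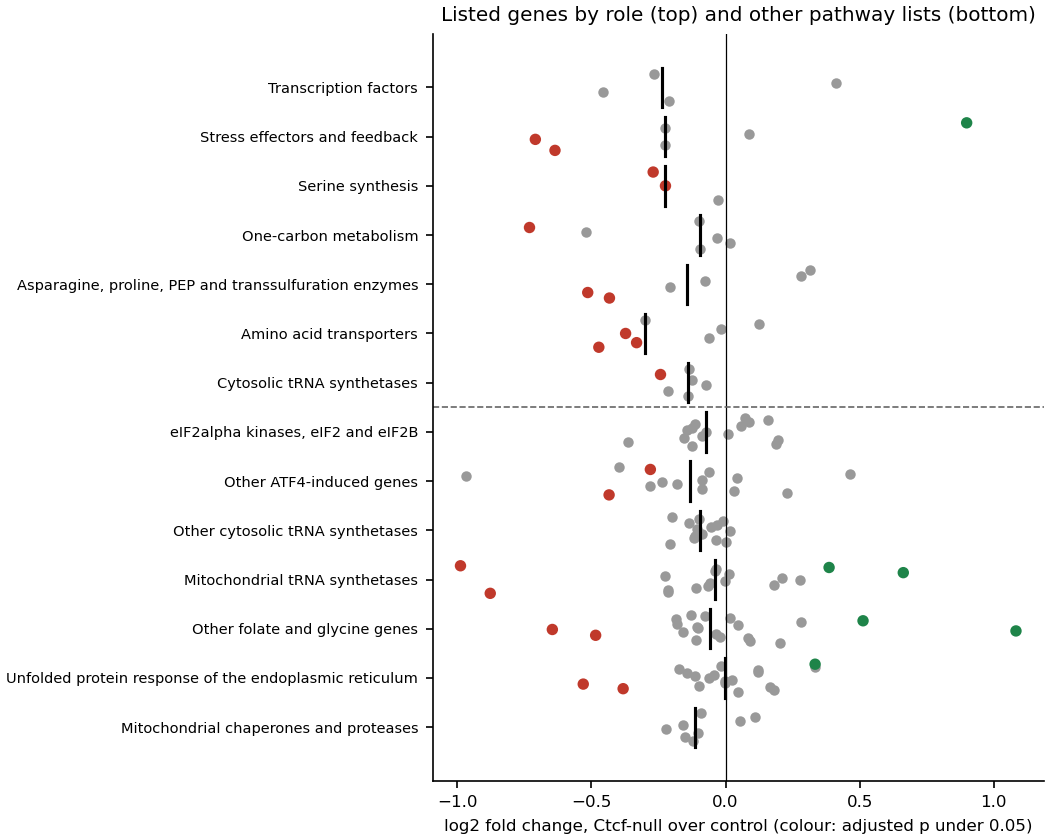
Log2 fold change of Ctcf-null over control for each tested gene (dot) of the listed genes by role (above the dashed line) and of the 7 further pathway lists (below it), with the median of each list as a black bar and genes past an adjusted p of 0.05 in red (lower) or green (higher). The listed groups have medians between -0.30 and -0.10, and the further lists between -0.13 and 0.00.

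Markers of cell types moved in the same libraries. Among all tested genes 7.13% fell and 4.8% rose. The sums below are scaled to the library total only, without the size factors used for the calls. In bulk tissue, fewer cells of a type and less RNA per cell cannot be told apart. Of 9 intermediate progenitor markers (dividing precursors of excitatory neurons) 6 fell and 0 rose (median -0.63). Eomes, Insm1 and Elavl2 did not pass, and the highest log2 fold change among the 9 was 0.09. The largest change was that of Neurog1, at -2.17 (SE 0.38), from low normalized counts of 6.23, 92.56, 1.41 and 19.44. The summed level of the markers was 376 and 768 CPM in the controls and 343 and 561 in the Ctcf-null libraries. Of 14 markers of proliferating cells 5 fell and 0 rose (median -0.22), with sums of 1270 and 1570 against 1200 and 1530. Of 12 tested apical progenitor markers 3 fell and 1 rose, and of 12 neuron markers 3 fell and 3 rose. Choroid plexus markers rose in 3 of 9, with sums of 2020 and 741 against 3130 and 1190, and microglia markers in 2 of 12, with sums of 54.7 and 116 against 75.9 and 154. Erythroid genes were abundant in all libraries, at 36600 and 16700 against 29900 and 20200, with 0 of 10 called (2 with an unadjusted p under 0.05). Of 10 pericyte and meninges markers 0 were called (1 with an unadjusted p under 0.05). Of 8 endothelial markers 1 fell. The part of cell composition in the values of the list was not tested.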

How the data were processed

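RNA was sequenced from 4 mouse telencephalon libraries. Per the labels' protocols cDNA was made with a Clontech SMART kit, and no strand information is given, so overlapping and antisense genes cannot be told apart. STAR 2.5.3, DESeq2 and the build mm10 are named, per the submitters' processing notes, with the gene counter not given in the sources used here. The authors' deposited values are normalized read counts, a signal per gene and library, with their own log2 fold changes per pair, which were not used in the tests. In every library, 99.97% or more of the values above 0 came out as whole multiples of 1 read (tolerance 0.005 on the deposited value), and dividing by that step returned the reads, following an earlier account of these data.

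The main test was edgeR 4.0.16 (R 4.3.3; glmQLFit and glmQLFTest, two-sided, TMM factors, filterByExpr) with genotype and the replicate number as terms. With 1 residual degree of freedom, the test draws on the spread of all genes together (23.6 prior degrees of freedom). Numbers were treated as pairs since the series is described as 2 pairs and the authors list fold changes for each. Same-numbered libraries deviated together from the group means (r = 0.923). Replicates were not repeats of 1 library: their chi-square, divided by its degrees of freedom, was 447 for controls and 343 for Ctcf-null. Single-pair fold changes came from a saturated fit with no test. Alternatives were no block, other size factors and filters, DESeq2 1.42.0, limma 3.58.1 on log2(value + 1) or log2(value + 5), and leaving out pairs or libraries. Coordinates and lengths came from GENCODE M21 (mm10), promoters from RefSeq (GRCm38.p6). All listed genes are accounted for, and of other pathway genes only called ones are named, at most 3 per list and direction. The genes and lists were chosen with earlier results of these data known. The promoter stretch of 1 further gene is not reported here.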

Additional observations from a re-analysis of the deposited data

How the results depend on the processing

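Without the replicate block, edgeR and limma called 0 genes in all (174 and 170 with an unadjusted p under 0.05, of which 0 were listed genes), hence 0 listed and 0 other pathway genes in either direction. Within the block, all calls numbered 1277 with the filter at 5 CPM and 832 in DESeq2, against 2643. Rises were 40.2% of calls with TMM, 26.1% with the authors' size factors and 56.0% with upper-quartile factors, and medians of all genes lay between -0.07 and 0.03. Listed genes called lower numbered 6 with upper-quartile factors, 5 with the filter at 5 and 5 in DESeq2, against 11; those called higher numbered 2, 0 and 0, against 1. With the authors' size factors, RLE factors and limma with the block, all 12 calls remained. Other pathway genes called lower numbered 14 with the authors' size factors and in limma with either pseudocount, 3 with the filter at 5 and 2 in DESeq2, against 8; those called higher numbered 3 with the authors' size factors and 2 in DESeq2, against 5. The median of the list was -0.09 with the filter at 5, where 31 genes were tested.

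Of genes not called, Shmt2 (0.02) had -0.01 without the block and with RLE factors and DESeq2, -0.04 with the authors' size factors and -0.03 in limma. Slc1a4 had 0.04 without the block and with upper-quartile factors and 0.03 with the filter at 5, where Mthfd1 and Phgdh had 0.02 in both. Leaving out 1 library could be run only without the block and so mixes pairs with genotypes: 0 to 6 genes passed in all, and 0 of the list or the other pathway genes. The list's median then ran from -0.51 to 0.09. Asns, Cbs, Cth, Mthfd2, Psat1, Sars, Slc6a9, Slc7a5, Stc2 and Trib3 kept their sign in these fits. The ranges that follow are those of the other tested genes, whose sign differed from the main fit in at least 1 of them. Log2 fold changes ran from -0.25 to 0.00 (Aars), -0.39 to 0.00 (Aldh18a1), -1.07 to 1.10 (Aldh1l2), -1.17 to 1.65 (Atf3), -1.30 to 0.86 (Atf4), -1.01 to 0.02 (Atf5), -2.15 to 0.25 (Chac1), -0.76 to 0.17 (Ddit3), -3.05 to 1.88 (Ddit4), -1.85 to 1.47 (Gars), -0.51 to 0.43 (Mthfd1), -1.03 to 0.08 (Mthfd1l), -0.23 to 0.12 (Nars), -0.54 to 0.12 (Nupr1), -0.31 to 0.19 (Pck2), -0.76 to 0.67 (Phgdh), -0.84 to 1.01 (Ppp1r15a), -0.59 to 0.04 (Psph), -1.75 to 0.69 (Pycr1), -0.19 to 0.03 (Shmt1), -1.32 to 1.38 (Shmt2), -0.85 to 0.69 (Slc1a4), -0.91 to 1.26 (Slc1a5), -2.00 to 1.17 (Slc3a2), -0.26 to 0.19 (Slc7a1), -2.78 to 1.91 (Slc7a11), -0.52 to 0.08 (Wars) and -0.41 to 0.13 (Yars). Each pair alone kept the direction of all 12 calls, which carries little weight because the same pairs made the calls. The cause of these shifts was not tested.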
